A study of Bos taurus with 8 samples.

Results

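The genes described here are ZP2, ZP3 and ZP4, which encode glycoproteins of the zona pellucida, and GDF9 and BMP15, the main growth factors secreted by the oocyte. They were taken by symbol from RNA-seq tables made from eight-cell embryos of cattle. All 5 were present, each as 1 feature of the 21258 in the tables. Every library was made from a pool of 8 Holstein embryos. KDM4E-SCNT embryos (2 libraries) were clones made by somatic cell nuclear transfer that carried, per the labels, the additional KDM4E treatment, and KDM4E is a histone demethylase. IVF embryos (3 libraries) came from in vitro fertilisation. SCNT embryos (3 libraries) were clones without the KDM4E treatment, and they are the reference for both other groups. Details of the KDM4E treatment, the donor cells and the age of the embryos in hours are not given in the sources used here. Nor do the labels tie the pools to separate batches of embryos, so the p-values reflect only how far these libraries vary, and that variation may be technical.

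The zona pellucida is the glycoprotein coat around the mammalian egg. The growing oocyte makes its ZP proteins, which assemble into filaments, bind sperm and, after fertilisation, are altered so that further sperm are blocked. In cattle the coat is built from ZP2, ZP3 and ZP4. GDF9 and BMP15 are TGF-beta family ligands that the oocyte secretes onto the surrounding granulosa and cumulus cells. There BMP15 acts through the receptors BMPR2 and BMPR1B and the transducers SMAD1 and SMAD5. GDF9 acts through BMPR2 and TGFBR1 and the transducers SMAD2 and SMAD3. The 5 transcripts accumulate during oocyte growth, and the embryo inherits them from the oocyte. Many inherited transcripts are degraded while the embryonic genome is switched on, which in cattle takes place around the eight-cell stage. In mouse, FIGLA switches on the Zp genes, and NOBOX is needed for Gdf9 expression in the oocyte.

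Values are FPKM, fragments scaled to transcript length and library size, so levels of genes can be set side by side. Comparisons between libraries also depend on the scaling used. Summed FPKM was 804189 and 753246 in KDM4E-SCNT, 702294 to 742949 in IVF and 812693 to 844175 in SCNT libraries. The files hold no fragment counts, so the depth is unknown. Between 10975 and 13050 features reached 1 FPKM per library. The mitochondrial share of summed FPKM was 11.04% to 11.5% in KDM4E-SCNT, 6.08% to 7.11% in IVF and 7.54% to 10.6% in SCNT libraries, and its part in the results was not tested. The overexpressed gene was not analysed here, as no feature was matched to it by name.

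The tables place the genes on 4 chromosomes of the build UMD3.1. ZP2 (ENSBTAG00000011504.4) spans chr25:19228387-19240185 and ZP3 (ENSBTAG00000014834.5) spans chr25:34960635-34968376. ZP4 (ENSBTAG00000026085.4) spans chr28:10664110-10671377. GDF9 (ENSBTAG00000009478.1) spans chr7:46064180-46067119, and BMP15 (ENSBTAG00000045782.1) spans chrX:93971184-93977809. Each value covers the whole gene, exons pooled, and no other feature in the tables overlaps any of the 5 intervals.

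All 5 transcripts were abundant in KDM4E-SCNT and IVF libraries and several-fold lower in SCNT libraries. ZP2, whose product binds sperm in mouse and human and is cleaved after fertilisation, had 208 and 490 FPKM in KDM4E-SCNT libraries. It had 484, 403 and 530 FPKM in IVF libraries and 41.3, 46.8 and 38.9 FPKM in SCNT libraries. Every SCNT library lay below every library of the other groups, and the second KDM4E-SCNT library lay within the IVF range. ZP3, the partner with which the other zona proteins form filaments, had 35.9 and 53.6 FPKM in KDM4E-SCNT libraries. In IVF libraries ZP3 had 134, 32.0 and 107 FPKM, and in SCNT libraries it had 12.9, 12.6 and 12.1 FPKM. The SCNT libraries were again the lowest, and IVF replicate 2 lay below both KDM4E-SCNT libraries. ZP4, a zona protein that mice lack, had 245 and 466 FPKM in KDM4E-SCNT libraries. It had 1124, 339 and 868 FPKM in IVF libraries and 49.6, 59.5 and 94.97 FPKM in SCNT libraries. IVF replicate 2 fell between the KDM4E-SCNT libraries, and the SCNT libraries were below all others.

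GDF9 had 138 and 450 FPKM in KDM4E-SCNT libraries, 384, 435 and 317 FPKM in IVF libraries, and 24.5, 27.6 and 19.7 FPKM in SCNT libraries. Its KDM4E-SCNT values enclosed the IVF range, and neither group overlapped SCNT. BMP15 had 600 and 829 FPKM in KDM4E-SCNT libraries, 1593, 872 and 1384 FPKM in IVF libraries, and 205, 186 and 205 FPKM in SCNT libraries. For this gene the 3 groups did not overlap at all, with KDM4E-SCNT between IVF and SCNT.

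**Figure D1:**
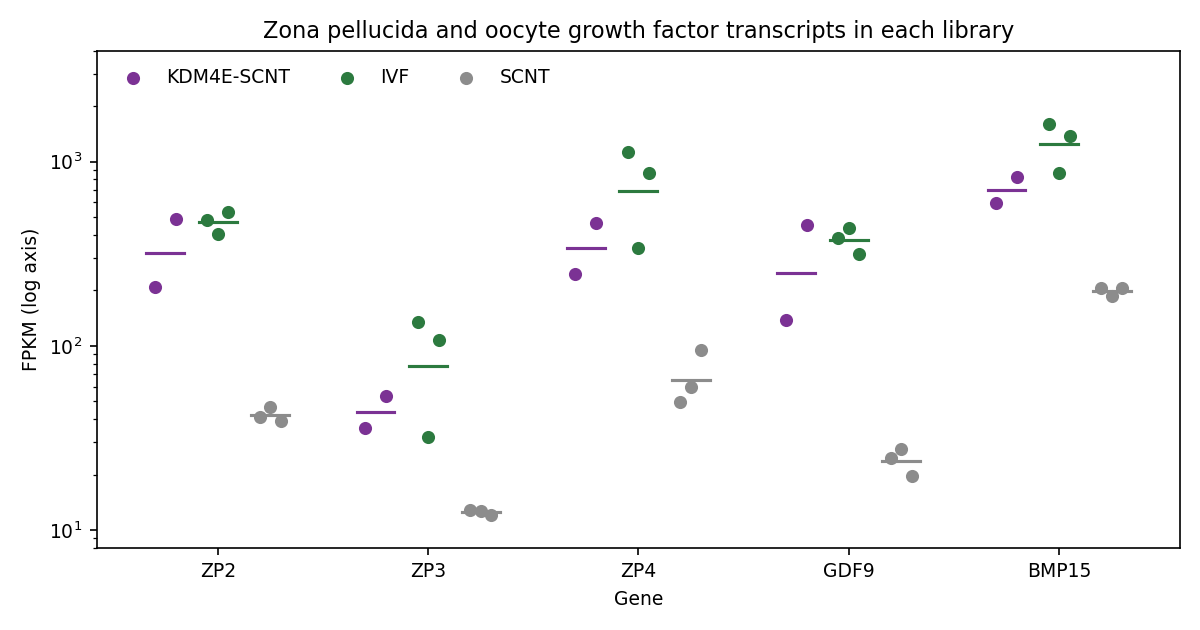
FPKM of ZP2, ZP3, ZP4, GDF9 and BMP15 (log axis) in each of the 8 libraries, as points, with KDM4E-SCNT left, IVF in the middle and SCNT right; lines are means taken on the log2(FPKM + 1) scale. SCNT points lie below all others for every gene, from 12.1 FPKM (ZP3) to 205 FPKM (BMP15).

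The plot of FPKM by library shows how far apart the groups stood for each gene, and how tight the SCNT libraries were except for ZP4. Mean FPKM in IVF embryos was 1283 ± 371 for BMP15, 777 ± 400 for ZP4, 472 ± 64.2 for ZP2, 379 ± 59.1 for GDF9 and 91.1 ± 53.0 for ZP3 (SD, n = 3). In SCNT embryos the means were 199 ± 10.8 for BMP15, 68.0 ± 23.8 for ZP4, 42.3 ± 4.05 for ZP2, 23.9 ± 3.94 for GDF9 and 12.5 ± 0.414 for ZP3 (SD, n = 3). BMP15 was the most abundant of the 5 in every library and ZP3 the least. In IVF libraries the ranges of ZP4, ZP2 and GDF9 overlapped, while in SCNT libraries ZP4 lay above ZP2 and ZP2 above GDF9 without overlap. In SCNT libraries BMP15 stood at the 96.7 to 96.8 percentile of all features, ZP4 at 90.7 to 94.2, ZP2 at 89.2 to 91.0, GDF9 at 83.6 to 87.3 and ZP3 at 78.8 to 79.8. In IVF libraries those positions were 99.6 to 99.8 for BMP15 and 98.6 to 99.1 for GDF9. The 5 genes together made up 0.153% and 0.304% of summed FPKM in KDM4E-SCNT libraries, 0.501%, 0.296% and 0.436% in IVF libraries, and 0.0395%, 0.0394% and 0.0456% in SCNT libraries. These are pools of whole embryos, in which fewer cells of a type and less RNA per cell cannot be told apart.

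The comparison of KDM4E-SCNT with SCNT sets cloned embryos labelled with the KDM4E treatment against clones without it, and all 5 genes were higher in KDM4E-SCNT. Differences are in log2(FPKM + 1), which understates the change of low genes, and were tested with limma across 14839 features with Benjamini-Hochberg adjustment. Calls were made where the adjusted p was under 0.05. All 5 were called higher, against 21.6% of features called higher and 32.6% called in either direction. GDF9 differed most, by 3.34 ± 0.42 (SE), a 10.1-fold higher level on this scale (95% interval 2.43 to 4.25, adjusted p = 0.000615). ZP2 differed by 2.89 ± 0.35, 7.42-fold (adjusted p = 0.000577). ZP4 differed by 2.35 ± 0.48, 5.10-fold (adjusted p = 0.00381). BMP15 differed by 1.82 ± 0.30, 3.54-fold (adjusted p = 0.00159), and ZP3 by 1.73 ± 0.50, 3.32-fold (adjusted p = 0.0193). Among all features GDF9 ranked 27 and ZP2 ranked 94 by size of increase, while ZP4 ranked 399, BMP15 1246 and ZP3 1479. No library of KDM4E-SCNT overlapped SCNT for any of the 5, which held in the same direction for 38.1% of all features.

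These estimates depend on the second KDM4E-SCNT library. Without KDM4E-SCNT replicate 2 the calls for ZP3 (1.45, adjusted p = 0.158) and ZP4 (1.89, adjusted p = 0.0612) ended, and GDF9 differed by 2.495 and ZP2 by 2.28. Without KDM4E-SCNT replicate 1 GDF9 differed by 4.19 and ZP2 by 3.51. The ZP3 call also ended without SCNT replicate 3 (adjusted p = 0.0548), without a filter on low values (adjusted p = 0.0512) and with median-ratio scaling (adjusted p = 0.0569). That scaling moved the median difference of all features to 0.02, against 0.33 for FPKM as deposited, and the share of calls that were higher to 43.2%, against 66.2%. Under it the 5 genes differed by 1.28 (ZP3), 1.35 (BMP15), 1.88 (ZP4), 2.42 (ZP2) and 2.88 (GDF9).

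The comparison of IVF with SCNT asks how cloned embryos differ from fertilised ones at the same stage. All 5 genes were called higher in IVF, against 34.9% of features called higher and 58.5% called in either direction. GDF9 again differed most, by 3.93 ± 0.38 (SE), a 15.2-fold higher level (95% interval 3.11 to 4.74, limma adjusted p = 5.05e-06). ZP2 differed by 3.44 ± 0.31, 10.9-fold (limma adjusted p = 3.71e-06), and ZP4 by 3.38 ± 0.43, 10.4-fold (limma adjusted p = 3.51e-05). BMP15 differed by 2.64 ± 0.27, 6.24-fold (limma adjusted p = 8.38e-06), and ZP3 by 2.54 ± 0.45, 5.80-fold (limma adjusted p = 0.000392). By size of increase GDF9 ranked 32, ZP2 120, ZP4 140, BMP15 669 and ZP3 811 among the features. The libraries of IVF and SCNT did not overlap for any of the 5, as for 38.5% of all features in this direction. Every one of the 5 calls held under all 18 alternatives. Without IVF replicate 2 the ZP3 difference was larger, at 3.16. Median-ratio scaling moved the median of all features to 0.10, against 0.39, and the share of calls that were higher to 48.9%, against 59.7%. Under it the genes differed by 2.11 (ZP3) to 3.49 (GDF9).

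**Figure D2:**
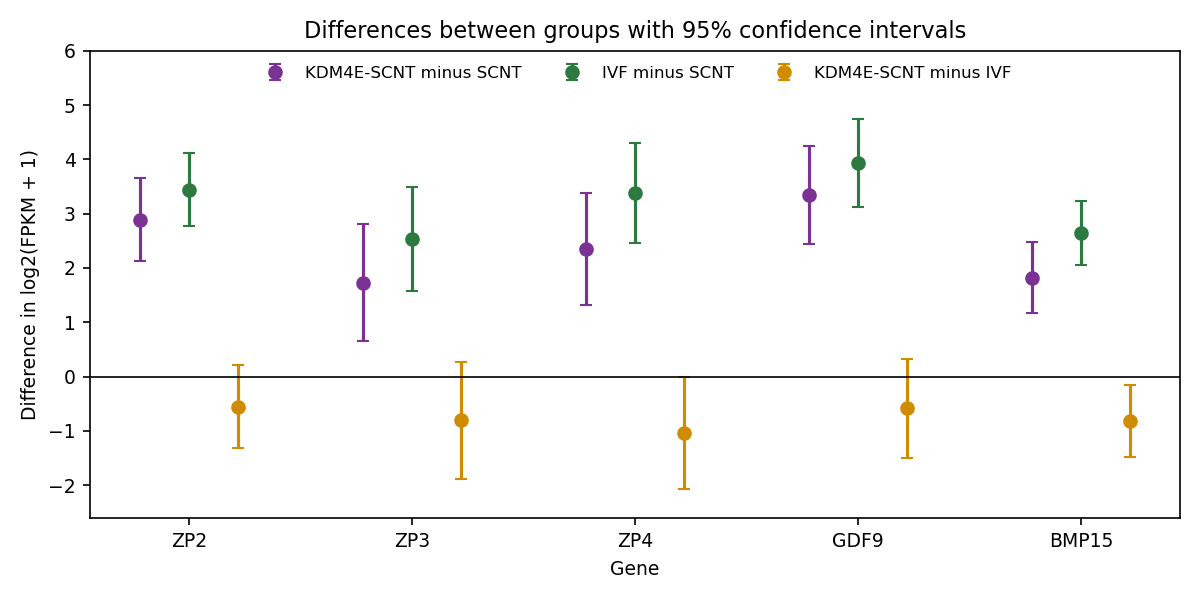
Difference in log2(FPKM + 1) for each gene in the 3 comparisons, KDM4E-SCNT minus SCNT, IVF minus SCNT and KDM4E-SCNT minus IVF, with 95% confidence intervals as bars. Intervals of the first 2 lie above 0 for all 5 genes, with GDF9 highest (3.34 and 3.93), and the KDM4E-SCNT minus IVF values lie between -1.03 and -0.55.

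Set directly against IVF, KDM4E-SCNT embryos had lower average levels of all 5 genes, but none was called, against 6.52% of features called in either direction and 0.62% called lower. ZP2 differed by -0.55 ± 0.35 (SE; 95% interval -1.31 to 0.21, limma adjusted p = 0.421). GDF9 differed by -0.59 ± 0.42 (95% interval -1.49 to 0.32, limma adjusted p = 0.481). ZP3 differed by -0.80 ± 0.50 (95% interval -1.88 to 0.27, limma adjusted p = 0.408). ZP4 differed by -1.03 ± 0.48 (95% interval from -2.06 to about 0, limma adjusted p = 0.254). BMP15 differed by -0.82 ± 0.30 (95% interval -1.48 to -0.16, limma adjusted p = 0.151). Among the differences of all features ZP4 stood at the 4.59 percentile, BMP15 at 9.11, ZP3 at 9.34, GDF9 at 17.5 and ZP2 at 18.9. BMP15 alone had an unadjusted p under 0.05 (0.0190), as did 19.7% of features, and it alone had libraries that did not overlap, as did 13.9% of features in this direction. The intervals, drawn in the plot of differences with their 95% bars, include 0 for ZP2, ZP3 and GDF9, end at about 0 for ZP4 and lie below 0 for BMP15. The outcome turned on single libraries. Without IVF replicate 2, ZP3 (-1.43, adjusted p = 0.0284), ZP4 (-1.54, adjusted p = 0.0433) and BMP15 (-1.07, adjusted p = 0.0489) were called lower in KDM4E-SCNT. Without KDM4E-SCNT replicate 2, ZP2 (-1.17, adjusted p = 0.0498) and GDF9 (-1.43, adjusted p = 0.0310) were. Without KDM4E-SCNT replicate 1 the differences of ZP2 (0.063) and GDF9 (0.26) turned positive.

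**Figure D3:**
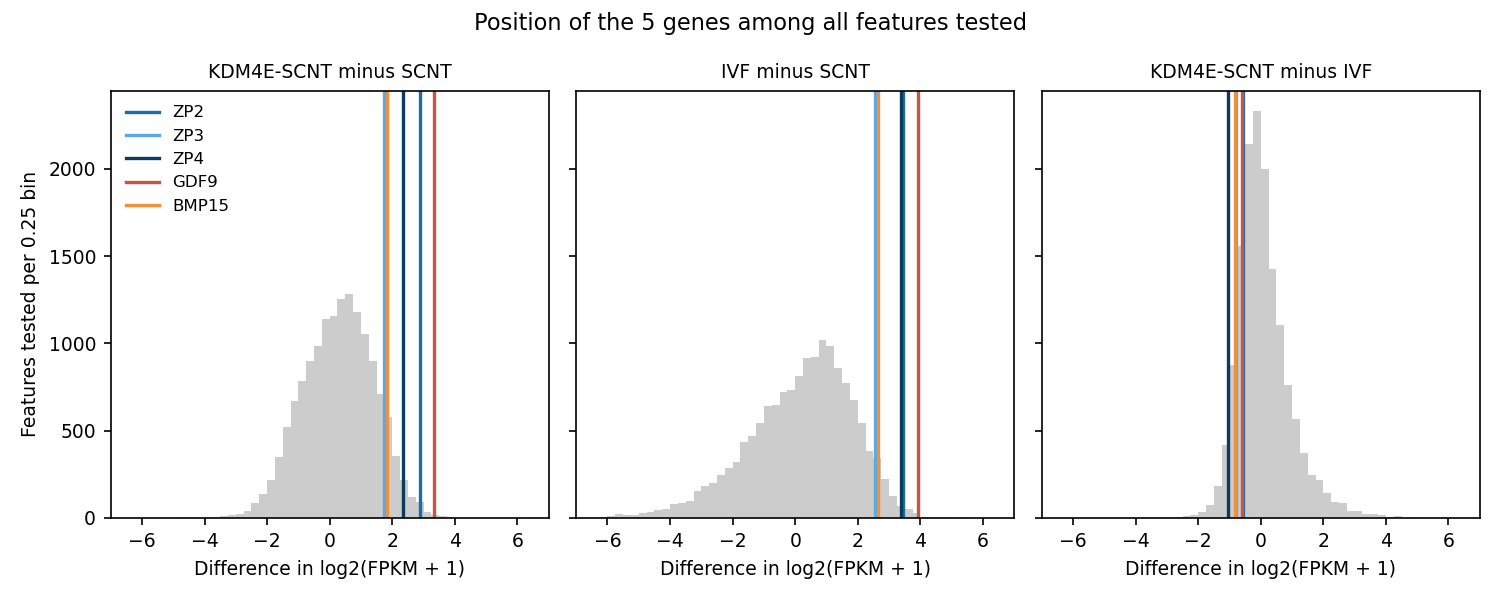
Histograms of the difference in log2(FPKM + 1) for the 14839 features tested (grey, features per 0.25 bin) in the 3 comparisons, with a vertical line for each of the 5 genes. The lines lie in the upper tail in both comparisons with SCNT, between 1.73 and 3.34 for KDM4E-SCNT and between 2.54 and 3.93 for IVF, and in the lower part of the distribution for KDM4E-SCNT minus IVF, between -1.03 and -0.55.

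The histograms of all features give the setting of these values: the median feature differed by 0.33 between KDM4E-SCNT and SCNT, by 0.39 between IVF and SCNT and by -0.03 between KDM4E-SCNT and IVF. On the log2 scale each KDM4E-SCNT library can be placed between the SCNT mean (0%) and the IVF mean (100%). Replicate 1 stood at 55.9% (ZP4) to 66.0% (ZP2) of the way for the 5 genes. Replicate 2 stood at 77.9% for BMP15, 79.4% for ZP3, 83.1% for ZP4, 102% for ZP2 and 107% for GDF9. The first library thus placed the 5 genes at close to the same point, and the second spread them out.

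The zona genes did not form 1 group and the growth factors another. Each gene's profile over the 8 libraries was centred on its own mean, and likeness was the root-mean-square difference between profiles in log2 units, lower being more alike. The most alike pairs each joined a zona gene to a growth factor, ZP3 with BMP15 (0.33) and ZP2 with GDF9 (0.34). ZP2 and ZP3 differed by 0.70, GDF9 and BMP15 by 0.82, and ZP3 and GDF9 by 1.01, the least alike pair.

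**Figure D4:**
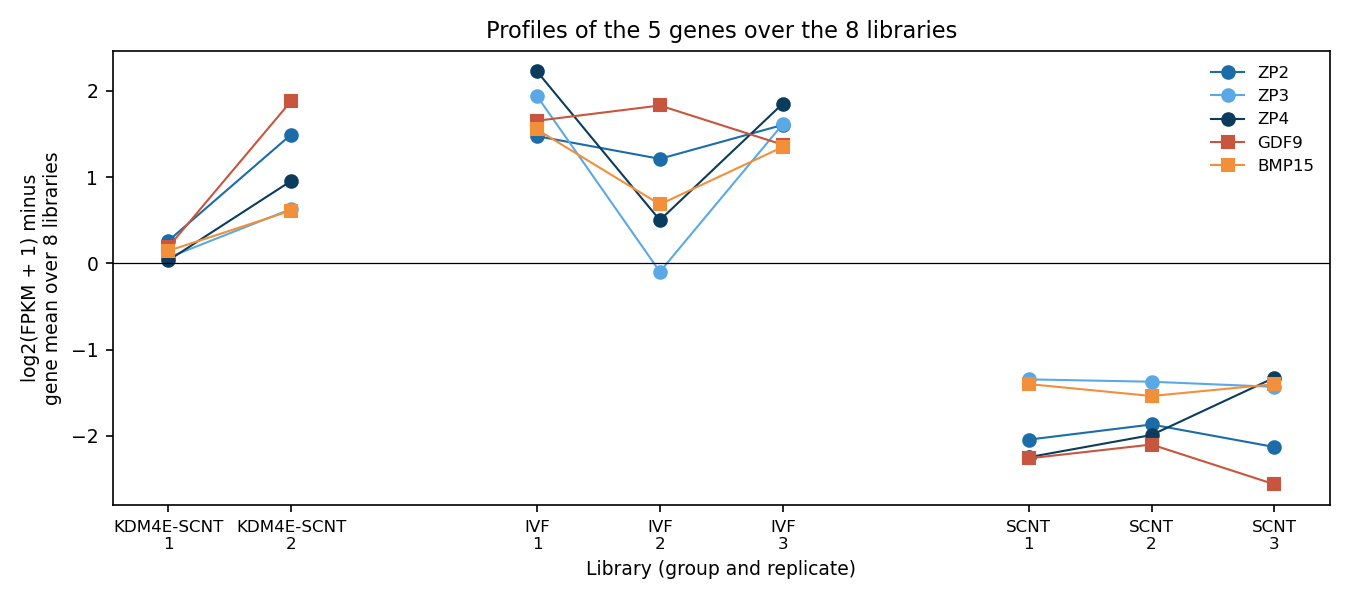
Log2(FPKM + 1) of each gene minus its own mean over the 8 libraries, by library, for KDM4E-SCNT, IVF and SCNT. In IVF 2 the profiles part, with GDF9 and ZP2 high and ZP3 and ZP4 low, and in KDM4E-SCNT 2 GDF9 and ZP2 rise above the other 3 genes.

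The plot of centred profiles shows that IVF replicate 2 and KDM4E-SCNT replicate 2 separate the genes most. In IVF replicate 2, ZP3 was lower than the mean of the other IVF libraries by a log2 difference of -1.87, ZP4 by -1.54 and BMP15 by -0.77. ZP2 differed by -0.33 and GDF9 by 0.32 there, and the median feature by -0.07. The ZP3 shift stood at the 1.67 percentile of all features tested and the ZP4 shift at the 3.46 percentile. Among other oocyte transcripts, shifts in this library varied in size and direction. H1FOO, the oocyte linker histone, was lower by -1.99, and NLRP5, a subcortical complex protein, was higher by 1.49. KPNA7 differed by -1.465, OOEP by -0.36, DPPA3 by 0.23, ZAR1 by 0.31 and BTG4 by 0.38. H1FOO stood at the 1.28 percentile and NLRP5 at 98.5, while OOEP, DPPA3, ZAR1 and BTG4 stood at 34.4 to 75.4. Between the KDM4E-SCNT libraries, replicate 2 exceeded replicate 1 by 1.69 for GDF9, 1.23 for ZP2, 0.92 for ZP4, 0.56 for ZP3 and 0.47 for BMP15, and by 0.16 for the median feature.

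Ratios within a library do not depend on its scaling. The BMP15 to GDF9 ratio of FPKM was 4.33 and 1.84 in KDM4E-SCNT libraries, 4.14, 2.01 and 4.37 in IVF libraries, and 8.35, 6.76 and 10.4 in SCNT libraries. Every SCNT ratio was above every other, since GDF9 was lower in SCNT by more than BMP15 was. The ZP2 to ZP3 ratio was 5.79 and 9.15 in KDM4E-SCNT libraries, 3.60, 12.6 and 4.96 in IVF libraries, and 3.21, 3.71 and 3.22 in SCNT libraries. Here IVF and SCNT overlapped, while both KDM4E-SCNT ratios exceeded all SCNT ratios. The ZP4 to ZP2 ratio was 1.18 and 0.949 in KDM4E-SCNT libraries, 2.32, 0.842 and 1.64 in IVF libraries, and 1.201, 1.27 and 2.44 in SCNT libraries, and it crossed between IVF and SCNT. The order BMP15, ZP4, ZP2, GDF9, ZP3 held in 6 of 8 libraries. ZP4 was below ZP2 in IVF replicate 2 and in KDM4E-SCNT replicate 2.

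Among 7420 named features that reached 5 FPKM in 2 or more libraries, the closest profiles to each gene were found by the same measure, over 8 libraries. For ZP2 they were WDSUB1 (0.17), OSMR (0.17) and PIGP (0.19). WDSUB1 had 50.0 and 98.5 FPKM in KDM4E-SCNT, 115, 99.2 and 91.4 FPKM in IVF, and 7.25, 8.60 and 6.91 FPKM in SCNT libraries, a lower level than ZP2. For ZP3 the closest were ABHD4 (0.19), PAX3 (0.20) and IL1R1 (0.22). PAX3 had 24.1 and 36.4 FPKM in KDM4E-SCNT, 70.3, 26.0 and 70.5 FPKM in IVF, and 7.80, 6.01 and 7.73 FPKM in SCNT libraries. Genes were chosen by likeness over these 8 libraries, so shared traits such as the low IVF replicate 2 follow from the choice. For ZP4 they were KPNA7 (0.20), an importin of oocytes and early embryos, SH2D2A (0.23) and BCL2L10 (0.28). KPNA7 had 509 and 730 FPKM in KDM4E-SCNT, 1565, 514 and 1291 FPKM in IVF, and 99.4, 88.9 and 141 FPKM in SCNT libraries. For GDF9 they were SLBP2 (0.19), BPNT1 (0.24) and GTF2IRD2 (0.26). SLBP2, an oocyte histone mRNA binding protein, had 641 and 1724 FPKM in KDM4E-SCNT, 1288, 1578 and 1467 FPKM in IVF, and 87.5, 102 and 63.9 FPKM in SCNT libraries. For BMP15 they were RAB30 (0.13), USB1 (0.13) and DAP (0.14). RAB30, a small GTPase of the Golgi, had 37.5 and 51.1 FPKM in KDM4E-SCNT, 78.3, 48.0 and 71.0 FPKM in IVF, and 11.8, 9.11 and 10.2 FPKM in SCNT libraries.

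Genes that work with the 5 were taken as lists, and each list is described by its counts under the limma calls. The counts stand against a background of 21.6% of all features called higher and 32.6% called in either direction in KDM4E-SCNT, and of 34.9% and 58.5% in IVF, each against SCNT. Of 12 oocyte transcription factors tested, 8 were called higher in KDM4E-SCNT than in SCNT and none lower, against 21.6% of all features called higher (median difference 1.40, all features 0.33). In IVF against SCNT, 10 were called higher and 2 lower, against 34.9% of all features called higher and 58.5% called in either direction (median 1.89, all features 0.39). The 2 called lower were TAF4B (-1.66 ± 0.32, limma adjusted p = 0.000734) and NR5A2 (-1.48 ± 0.43, limma adjusted p = 0.0103). Both were named after their values were seen. FIGLA, the activator of the Zp genes in mouse, had 1.63 and 4.06 FPKM in KDM4E-SCNT libraries, 8.00, 9.72 and 4.03 FPKM in IVF libraries, and 0, 1.04 and 0.51 FPKM in SCNT libraries. FIGLA was called higher in IVF (2.43 ± 0.43, limma adjusted p = 0.000392). In KDM4E-SCNT its difference from SCNT, 1.33 ± 0.48, passed narrowly (limma adjusted p = 0.0491) and held in 5 of 18 alternatives. TCF12, an E protein that can pair with such factors, differed by 2.37 ± 0.37 in KDM4E-SCNT (limma adjusted p = 0.00126) and by 2.89 ± 0.33 in IVF (limma adjusted p = 1.79e-05). TBPL2, the oocyte form of the TATA-binding protein, differed by 2.62 ± 0.36 in KDM4E-SCNT (limma adjusted p = 0.000816) and by 2.54 ± 0.33 in IVF (limma adjusted p = 4.00e-05). LHX8, needed for oocyte growth in mouse, differed by 1.54 ± 0.41 in KDM4E-SCNT (limma adjusted p = 0.0133) and by 2.64 ± 0.37 in IVF (limma adjusted p = 6.83e-05). NOBOX, named after its values were seen, had 3.52 and 2.34 FPKM in KDM4E-SCNT libraries, 2.88, 2.14 and 7.31 FPKM in IVF libraries, and 0.47, 0.30 and 0.06 FPKM in SCNT libraries. Fewer of the 12 were called higher without KDM4E-SCNT replicate 2, where LHX8, NOBOX and FIGLA were among the calls that ended. That fit leaves a single KDM4E-SCNT library and called fewer of all features too.

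Of 6 zona partners and egg-coat processing genes tested, 3 were called higher in KDM4E-SCNT than in SCNT (21.6% of all features) and 4 in IVF (34.9% of all features), where TIMP1 was called lower, a call that held in 14 of 18 alternatives. The list median was 1.81 in KDM4E-SCNT (all features 0.33) and 1.72 in IVF (all features 0.39). ASTL, the cortical granule protease that cleaves ZP2 after fertilisation, had 2.29 and 19.2 FPKM in KDM4E-SCNT libraries, 23.1, 15.7 and 25.5 FPKM in IVF libraries, and 1.12, 0.83 and 1.56 FPKM in SCNT libraries. ASTL was called higher in IVF (3.35 ± 0.53, limma adjusted p = 0.000188) and in KDM4E-SCNT (1.92 ± 0.60, limma adjusted p = 0.0269), where its libraries differed widely and the call held in 11 of 18 alternatives. OOSP1, a protein secreted by the oocyte, differed by 2.17 ± 0.46 in KDM4E-SCNT (limma adjusted p = 0.00493) and by 2.46 ± 0.42 in IVF (limma adjusted p = 0.000299). PADI6, an oocyte protein of the cytoplasmic lattices, differed by 2.05 ± 0.46 in KDM4E-SCNT (limma adjusted p = 0.00631) and by 2.97 ± 0.42 in IVF (limma adjusted p = 7.58e-05). FURIN, a convertase that processes secreted precursors, had 0 to 2.15 FPKM over the 8 libraries. Its call in IVF (0.99 ± 0.39, limma adjusted p = 0.0445) held in 8 of 17 alternatives, and in KDM4E-SCNT it was not called. FETUB, an inhibitor of ASTL, was not called in KDM4E-SCNT (0.55 ± 0.64) or in IVF (0.44 ± 0.57). Without KDM4E-SCNT replicate 2, the calls of this list in KDM4E-SCNT against SCNT ended, in a fit that called fewer of all features too.

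**Figure D5:**
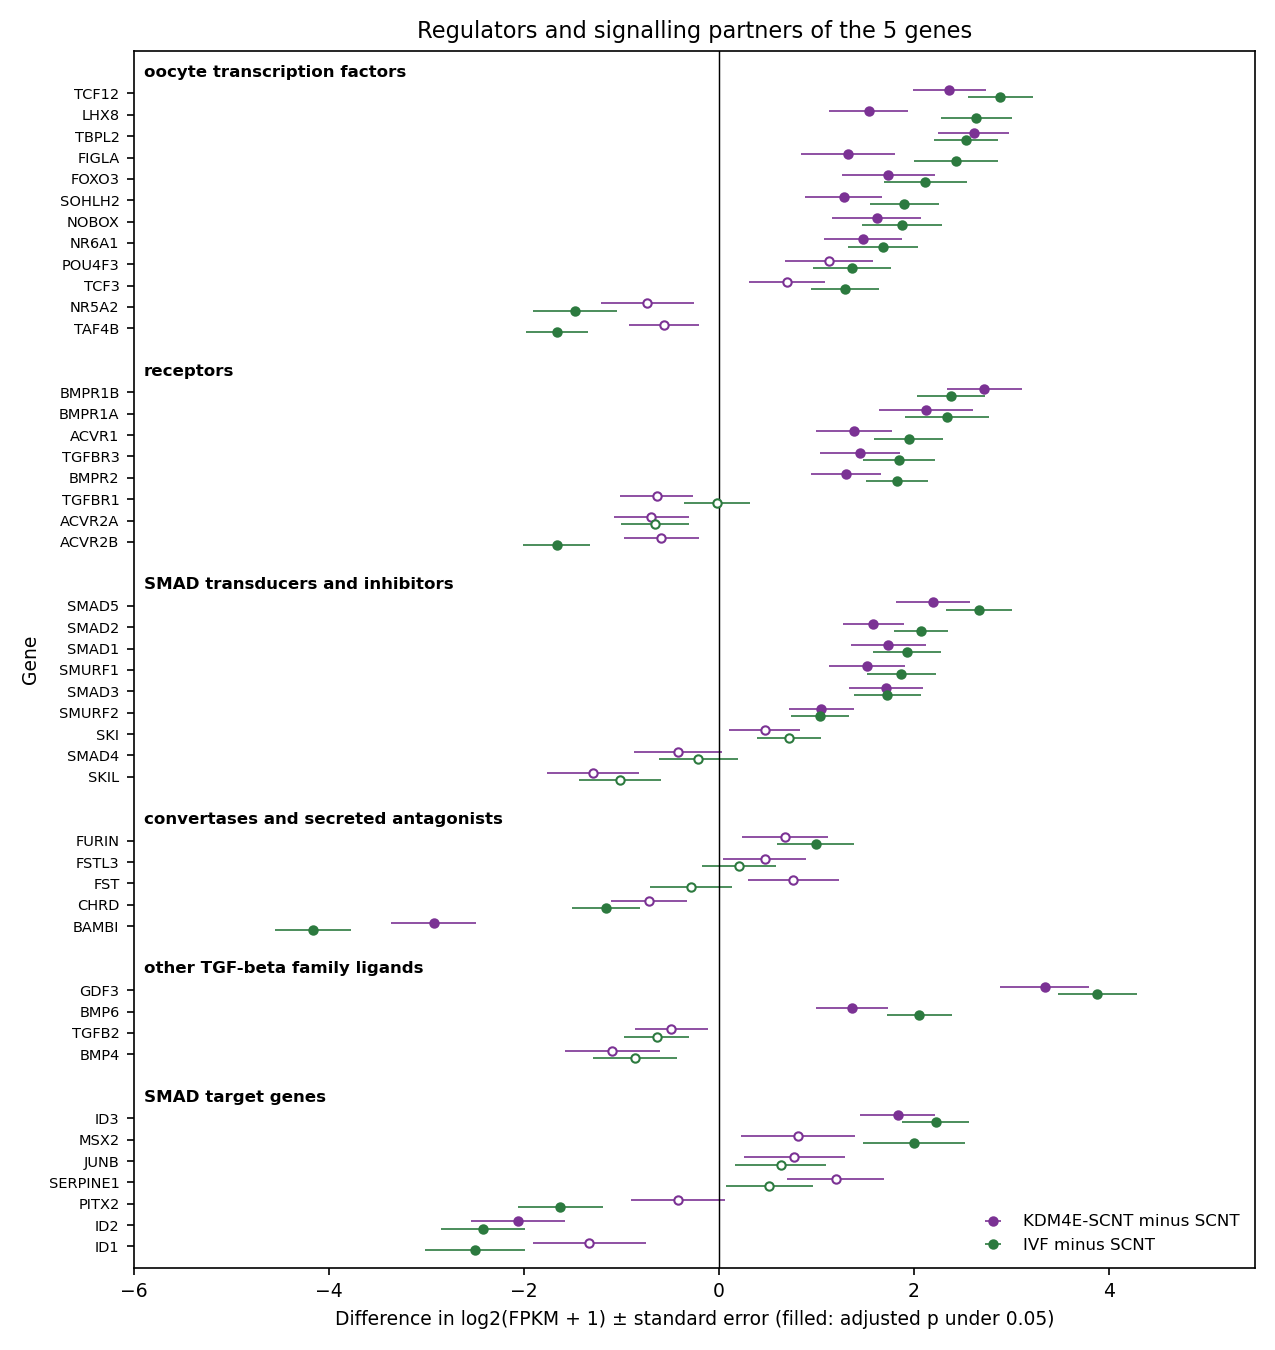
Difference in log2(FPKM + 1) with its standard error for tested genes of 6 lists, KDM4E-SCNT minus SCNT above IVF minus SCNT for each gene; filled points have an adjusted p under 0.05. Most transcription factors, BMP receptors and SMADs lie to the right, and BAMBI, ID1 and ID2 to the left, from -4.16 (BAMBI, IVF) upward.

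The plot of regulators and signalling partners places these genes beside the receptors and transducers of GDF9 and BMP15. Of 8 receptors tested, 5 were called higher in KDM4E-SCNT and none lower, and 5 were called higher and 1 lower in IVF, each against SCNT (medians 1.34 in KDM4E-SCNT and 1.84 in IVF). Of all features, 21.6% were called higher in KDM4E-SCNT (median 0.33) and 34.9% in IVF (median 0.39). BMPR1B, the type I receptor of BMP15, had 21.0 and 42.6 FPKM in KDM4E-SCNT libraries, 18.1, 26.5 and 26.6 FPKM in IVF libraries, and 3.36, 4.75 and 3.09 FPKM in SCNT libraries. It differed by 2.73 ± 0.39 in KDM4E-SCNT (limma adjusted p = 0.000882) and by 2.38 ± 0.35 in IVF (limma adjusted p = 9.84e-05). BMPR2, the type II receptor used by both growth factors, differed by 1.30 ± 0.36 in KDM4E-SCNT (limma adjusted p = 0.0160) and by 1.83 ± 0.32 in IVF (limma adjusted p = 0.000395). The feature with the symbol TGFBR1, the type I receptor of GDF9, was not called in KDM4E-SCNT (-0.64 ± 0.38) or in IVF (-0.02 ± 0.34), and its description in the files is that of an activin receptor. It and ACVR2B, the receptor called lower in IVF (-1.67 ± 0.34, limma adjusted p = 0.00119), were named after their values were seen. Without KDM4E-SCNT replicate 2, fewer of the receptors were called higher in KDM4E-SCNT, as were fewer of all features.

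Of 9 SMAD transducers and inhibitors tested, 6 were called higher and none lower in each comparison with SCNT (medians 1.52 in KDM4E-SCNT, against 0.33 for all features, and 1.73 in IVF, against 0.39). The share of all features called higher was 21.6% in KDM4E-SCNT and 34.9% in IVF. SMAD5, on the BMP15 side, differed by 2.198 ± 0.38 in KDM4E-SCNT (limma adjusted p = 0.00185) and by 2.67 ± 0.34 in IVF (limma adjusted p = 3.90e-05). SMAD2, on the GDF9 side, had 46.7 and 72.9 FPKM in KDM4E-SCNT libraries, 80.3, 91.3 and 76.3 FPKM in IVF libraries, and 16.9, 21.0 and 18.6 FPKM in SCNT libraries. SMAD2 differed by 1.59 ± 0.31 in KDM4E-SCNT (limma adjusted p = 0.00330) and by 2.08 ± 0.28 in IVF (limma adjusted p = 5.64e-05). SMAD4, their common partner, was not called in KDM4E-SCNT (-0.42 ± 0.45) or in IVF (-0.21 ± 0.40) and was named after its values were seen. In KDM4E-SCNT, fewer of the 9 were called without KDM4E-SCNT replicate 2, as were fewer of all features.

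Of 7 SMAD target genes tested, 1 was called higher and 1 lower in KDM4E-SCNT, and 2 higher and 3 lower in IVF, each against SCNT (medians 0.77 in KDM4E-SCNT, against 0.33 for all features, and 0.52 in IVF, against 0.39). With 32.6% of all features called in KDM4E-SCNT and 58.5% in IVF, these counts are near the background. The ID genes, inhibitors of E proteins and standard targets of BMP signalling, went in opposite directions. ID3 was called higher in KDM4E-SCNT (1.83 ± 0.38, limma adjusted p = 0.00438) and in IVF (2.22 ± 0.34, limma adjusted p = 0.000152). ID2 was called lower in KDM4E-SCNT (-2.06 ± 0.48, limma adjusted p = 0.00744; 0.114 without KDM4E-SCNT replicate 2) and in IVF (-2.42 ± 0.43, limma adjusted p = 0.000434). ID1 was called lower in IVF (-2.50 ± 0.52, limma adjusted p = 0.00123), and in KDM4E-SCNT it differed by -1.33 ± 0.58 without a call. BAMBI, a decoy receptor that dampens BMP and TGF-beta signals, had 4.73 and 2.83 FPKM in KDM4E-SCNT libraries, 1.94, 1.06 and 0.30 FPKM in IVF libraries, and 48.6, 26.1 and 32.6 FPKM in SCNT libraries. It was called lower in KDM4E-SCNT (-2.93 ± 0.44, limma adjusted p = 0.00109) and in IVF (-4.16 ± 0.39, limma adjusted p = 4.37e-06). BAMBI, a membrane protein, had been listed with the convertases and secreted antagonists. It was the only 1 of the 5 listed genes tested that was called in KDM4E-SCNT, against 32.6% of all features. In IVF 1 was called higher and 2 lower, against 58.5% of all features. CHRD, a BMP antagonist, was the other one called lower in IVF (-1.16 ± 0.35, limma adjusted p = 0.0129; 0.0591 without SCNT replicate 1).

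Among 4 other TGF-beta family ligands tested, 2 were called higher and none lower in each comparison with SCNT (medians 0.44 in KDM4E-SCNT, against 0.33 for all features, and 0.71 in IVF, against 0.39). Of all features, 21.6% were called higher in KDM4E-SCNT and 34.9% in IVF. GDF3, a ligand of early embryos, had 36.4 and 109 FPKM in KDM4E-SCNT libraries, 118, 67.4 and 99.3 FPKM in IVF libraries, and 5.21, 7.37 and 3.87 FPKM in SCNT libraries. It differed by 3.34 ± 0.45 in KDM4E-SCNT (limma adjusted p = 0.000779) and by 3.88 ± 0.40 in IVF (limma adjusted p = 9.04e-06). BMP6, which the oocyte also makes, differed by 1.36 ± 0.37 in KDM4E-SCNT (limma adjusted p = 0.0151) and by 2.06 ± 0.33 in IVF (limma adjusted p = 0.000218), and the KDM4E-SCNT call ended without KDM4E-SCNT replicate 2.

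Markers of the cell types that the pools could hold were examined beside the 5 genes. All 9 oocyte and early embryo markers, of which GDF9 and BMP15 are part, were called higher in KDM4E-SCNT and in IVF than in SCNT. Of all features, 21.6% were called higher in KDM4E-SCNT and 34.9% in IVF. The list medians were 2.22 in KDM4E-SCNT (all features 0.33) and 3.04 in IVF (all features 0.39). The 9 markers summed to 21360 and 25070 FPKM in KDM4E-SCNT, 27880 to 34800 FPKM in IVF and 4789 to 9958 FPKM in SCNT libraries. Most of every sum was BTG4, with 16017 and 18165 FPKM in KDM4E-SCNT, 18516 to 26548 FPKM in IVF and 3269 to 7818 FPKM in SCNT libraries. H1FOO was the only one of the 9 called between KDM4E-SCNT and IVF (-2.35 ± 0.50, limma adjusted p = 0.0126). Of 6 cumulus and granulosa markers tested, 2 were called higher in KDM4E-SCNT (32.6% of all features were called in either direction), and 4 higher and 1 lower in IVF (58.5% of all features). Their list summed to 74.2 and 132 FPKM in KDM4E-SCNT, 124 to 217 FPKM in IVF and 32.4 to 40.2 FPKM in SCNT libraries. On the same list, CYP19A1, FSHR and AMH reached at most 0.27 FPKM in any library, while SERPINE2 had 14.1 to 51.9 FPKM over the 8 libraries. HAS2 and STAR were called higher in both comparisons with SCNT. HAS2 had 27.5 and 47.4 FPKM in KDM4E-SCNT, 41.8 to 70.3 in IVF and 4.87 to 9.56 in SCNT libraries. STAR had 15.6 and 41.5 FPKM in KDM4E-SCNT, 41.2 to 86.6 in IVF and 5.08 to 11.1 in SCNT libraries. TNFAIP6, called lower in IVF, had 0.83 to 2.64 FPKM there and 3.70 to 8.19 FPKM in SCNT libraries. That call passed narrowly (-1.06 ± 0.43, limma adjusted p = 0.0492) and was not repeated under the alternatives. Of 8 fibroblast markers tested, 1 was called higher in KDM4E-SCNT (32.6% of all features were called), and 1 higher and 3 lower in IVF (58.5%). Between KDM4E-SCNT and IVF, 3 of the 8 were called higher in KDM4E-SCNT and none lower, against 6.52% of all features called. The median there was 1.70, against -0.03 for all features. The list of 10 genes summed to 59.4 and 310 FPKM in KDM4E-SCNT, 24.0 to 48.0 FPKM in IVF and 94.9 to 164 FPKM in SCNT libraries. KDM4E-SCNT replicate 2, the library in which GDF9 and ZP2 were higher, thus had the highest fibroblast sum. Most of it was LGALS1 (127 FPKM), LUM (84.6 FPKM) and SPARC (53.3 FPKM). On the list, COL1A1 (2.36 and 2.35 FPKM) and THY1 (1.24 and 0.58 FPKM) alone were not higher there than in replicate 1. TIMP1, a secreted metalloprotease inhibitor from the zona partner list and not a fibroblast marker here, stood at 135 FPKM in KDM4E-SCNT replicate 2. TIMP1 had 5.02 FPKM in KDM4E-SCNT replicate 1, 0, 1.71 and 0 FPKM in IVF libraries, and 14.2, 7.08 and 4.71 FPKM in SCNT libraries. Of 4 sperm markers tested, 1 was called lower in KDM4E-SCNT (32.6% of all features were called), and 1 higher and 1 lower in IVF (58.5%). The list summed to 6.02 and 8.92 FPKM in KDM4E-SCNT, 6.88 to 9.06 FPKM in IVF and 18.4 to 37.2 FPKM in SCNT libraries. Most of the SCNT sum was CRISP2, with 20.2, 17.5 and 34.3 FPKM in SCNT libraries. CRISP2 had 3.65 and 2.64 FPKM in KDM4E-SCNT and 1.15 to 2.73 FPKM in IVF libraries. The part of these other cell types in the results was not tested.

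The nearest named and tested genes within 60000 bp were read as a description of the loci, chosen after the values were seen. TMEM159, 26397 bp from ZP2, differed by 2.12 ± 0.33 in KDM4E-SCNT (limma adjusted p = 0.00121) and by 2.60 ± 0.29 in IVF (limma adjusted p = 1.53e-05). ANKS4B, 28096 bp away on the other side of ZP2, was not called in KDM4E-SCNT (0.08 ± 0.53) or in IVF (0.84 ± 0.47). DTX2, 10953 bp from ZP3, differed by 1.59 ± 0.43 in KDM4E-SCNT (limma adjusted p = 0.0138; 0.109 without KDM4E-SCNT replicate 2) and by 1.98 ± 0.38 in IVF (limma adjusted p = 0.000764). YWHAG, 53996 bp away, was not called in KDM4E-SCNT (0.73 ± 0.38) or in IVF (0.62 ± 0.34). UQCRQ, a respiratory chain subunit gene 1987 bp from GDF9, lay opposite to it. It differed by -0.76 ± 0.29 in KDM4E-SCNT without a call and by -1.08 ± 0.26 in IVF (limma adjusted p = 0.00358; 0.0522 with quantile normalization). No named tested gene lay within that distance of ZP4 or BMP15.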

How the data were processed

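The authors deposited 1 table of FPKM values per library, for 8 libraries, per the file headers. Tools listed in the submitters' processing notes, with no role or order, are RSEM 1.2.12, Bowtie2 2.2.5, HISAT 0.1.6, StringTie 1.0.4 and bcl2fastq 2.16, and the build listed is UMD3.1. Per the labels' protocols, cDNA was tailed, amplified and fragmented before library preparation, so FPKM carries amplification noise, and no molecular identifiers are described. Groups came from the labels. The files hold no counts, so no count test or depth can be given.

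The fit used the 14839 features that reached 1 FPKM in 2 or more libraries, which set 6419 aside, and all 5 genes passed. The log2(FPKM + 1) values of the 8 libraries entered 1 group-means model in limma 3.58.1 (R 4.3.3; limma-trend, robust moderation), tested on simulated data before use. P-values are two-sided and adjusted by the Benjamini-Hochberg method over all features. The genes, the lists and the tests were chosen with earlier results of these data known. Named genes were the 5, the 3 closest profiles to each, and, from each list, up to 4 with the smallest adjusted p in IVF against SCNT and up to 2 more in KDM4E-SCNT against SCNT; others are marked. The text gives part of these. Sequences were not used here. There were 18 alternatives per result: normalization, pseudocount, filter, samples in the fit, moderation, replicate block and leaving out each library.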

Additional observations from a re-analysis of the deposited data

How the results depend on the processing

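In IVF against SCNT, all 5 genes kept their call under each of the 18 alternatives, and leaving out single libraries gave 3.36 to 3.55 for ZP2, 2.14 to 3.16 for ZP3, 3.03 to 3.89 for ZP4, 3.801 to 4.05 for GDF9 and 2.46 to 2.90 for BMP15 (log2). In KDM4E-SCNT against SCNT, ZP2, GDF9 and BMP15 did so too. Leaving out libraries gave 2.28 to 3.51 for ZP2, 1.45 to 2.01 for ZP3, 1.89 to 2.81 for ZP4, 2.495 to 4.19 for GDF9 and 1.59 to 2.06 for BMP15, with 3 to 5 genes called. ZP3 was not called with median-ratio scaling (1.28) or without a filter (1.73, more features tested), nor without SCNT replicate 3 (1.71) or KDM4E-SCNT replicate 2. ZP4 was not called without KDM4E-SCNT replicate 2. In KDM4E-SCNT against IVF, leaving out libraries gave -1.17 to 0.063 for ZP2, -1.43 to -0.41 for ZP3, -1.54 to -0.57 for ZP4, -1.43 to 0.26 for GDF9 and -1.07 to -0.58 for BMP15, with 0 to 3 genes called. Over all features the calls numbered 4844 in KDM4E-SCNT against SCNT (1553 to 5242 with libraries left out), 8680 in IVF against SCNT (7286 to 8819) and 967 in KDM4E-SCNT against IVF (298 to 1301, and 541 with only those groups fitted). Causes were not tested.

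Of the other named genes, 18 of 45 calls in KDM4E-SCNT against SCNT and 49 of 54 in IVF against SCNT held under every alternative. Of all features, 32.6% and 58.5% were called in these comparisons, and the share of those calls that held was not worked out. Many of the named genes were picked for likeness over these same libraries or for the smallest adjusted p. Their calls, and how well these held, thus follow in part from the choice. Each KDM4E-SCNT call that was lost was lost without KDM4E-SCNT replicate 2, some under other alternatives too. Signs turned only for genes with no call in that comparison. In KDM4E-SCNT against SCNT, TIMP1 was -0.56 and FETUB -0.40 without KDM4E-SCNT replicate 2, and 3.94 and 1.498 without KDM4E-SCNT replicate 1. ANKS4B was -0.29 with quantile normalization, -0.12 with median-ratio scaling, -0.022 with a pseudocount of 0.1, -0.22 without SCNT replicate 1 and -0.61 without KDM4E-SCNT replicate 2 (0.78 without replicate 1). In IVF against SCNT, FST was 0.15 without SCNT replicate 1 and -0.55 without SCNT replicate 3. FSTL3 was -0.071 with quantile normalization, -0.012 without IVF replicate 1 and -0.0060 without SCNT replicate 2, and at highest 0.42. TGFBR1 was 0.17 with 1 total per library, 0.16 without IVF replicate 2, 0.16 without SCNT replicate 1 and 0.08 without SCNT replicate 3, and SMAD4 was 0.073 without IVF replicate 3 and at lowest -0.64. Other genes were not repeated in KDM4E-SCNT against IVF, apart from TIMP1, called in 13 of 18.

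With the replicate number as a block, 4252, 8656 and 957 features were called in KDM4E-SCNT against SCNT, IVF against SCNT and KDM4E-SCNT against IVF, and 5, 5 and 0 of the 5 genes. The deviations of same-numbered libraries correlated at 0.00649 and 0.123 for KDM4E-SCNT with SCNT, 0.0324 and 0.0678 for KDM4E-SCNT with IVF, and 0.0602, 0.0934 and 0.0277 for IVF with SCNT. Not every pair was over 0.1, so the numbers were not taken to pair the samples. KDM4E-SCNT replicate 1 correlated best with SCNT replicate 3 (0.134), and IVF replicate 3 correlated best with SCNT replicate 1 (0.0702). With 2 or 3 libraries a group, unknown depth and FPKM only, the low genes are the least precise.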

Other observations

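Genes of sperm binding to the zona were read although they are known for their work in the male. ZPBP2, an acrosomal zona-binding protein, had 3.1 and 5.15 FPKM in KDM4E-SCNT libraries, 10.2, 8.57 and 8.04 FPKM in IVF libraries, and 0.35, 2.07 and 0.58 FPKM in SCNT libraries. It was called higher in KDM4E-SCNT (1.42 ± 0.43, limma adjusted p = 0.0235; 0.178 at most over its alternatives) and in IVF (2.40 ± 0.38, limma adjusted p = 0.000192), each against SCNT. Its relative ZPBP had 1.07 and 3.29 FPKM in KDM4E-SCNT libraries, 4.41, 3.72 and 4.28 FPKM in IVF libraries, and 1.05, 0.84 and 0.23 FPKM in SCNT libraries. ZPBP was called higher in IVF (1.62 ± 0.38, limma adjusted p = 0.00299) and not in KDM4E-SCNT (0.84 ± 0.43, limma adjusted p = 0.147). CRISP2, a sperm protein on the same marker list, was called lower in KDM4E-SCNT (-2.55 ± 0.41, limma adjusted p = 0.00135) and in IVF (-3.09 ± 0.36, limma adjusted p = 2.13e-05), so the list did not move 1 way. These genes were chosen after their values were seen.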
